A study of Mus musculus with 8 samples.

Results

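The GIMAP genes, which encode GTPases of immunity-associated proteins, were followed here in the RNA of CD8 single-positive (CD8SP) thymocytes from control mice and from mice with Ndrg3 deleted in T cells. The members are the 8 mouse genes Gimap1, Gimap3, Gimap4, Gimap5, Gimap6, Gimap7, Gimap8 and Gimap9, taken by gene name and not by any measured value. All 8 were found among the 47937 genes of the count table, and all 8 were among the 14633 genes that passed the filter on low counts. RNA came from CD8SP thymocytes sorted as TCRβ+ and high for MHC class I, from mice aged 6 to 7 weeks. Each library is a biological replicate and was taken here as 1 mouse. The 4 Ndrg3ctrl libraries were from mice with the genotype Ndrg3 +/fl;Lck-cre+, and the 4 Ndrg3TKO libraries from mice with the genotype Ndrg3 fl/fl;Lck-cre+. Both groups therefore carried the Cre transgene, driven by the proximal Lck promoter from an early thymocyte stage, and the controls also had 1 floxed allele, so that the comparison is of the loss of both alleles with the loss of 1. The study used these libraries to look for early events behind the failing passage of CD8SP thymocytes to naive T cells.

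GIMAP proteins are small GTPases related to septins, and most are made in lymphocytes. Several sit on internal membranes, such as those of lysosomes, mitochondria or the endoplasmic reticulum. They are best known for the survival of T cells: mice or rats that lack GIMAP5 and mice that lack GIMAP1 have few peripheral T cells although thymocyte development goes on. In the mouse the genes lie side by side on chromosome 6, and the RNA of several of them rises as thymocytes mature to the single-positive stage.

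No change of the GIMAP family with the loss of Ndrg3 was detected in CD8SP thymocytes. In the quasi-likelihood test of edgeR, with p-values adjusted over all tested genes after Benjamini and Hochberg, 0 of the 8 genes passed the threshold of 0.05, where 1.15% of all tested genes did, 0.793% with higher and 0.355% with lower values in Ndrg3TKO. At an unadjusted p under 0.05, 1 of the 8 passed, Gimap7, against 10.9% of all tested genes, and DESeq2 likewise called 0 members after adjustment and 1 before it, against 2.02% and 6.44% of the genes to which it gave such a p. The ranges of the 4 Ndrg3ctrl and the 4 Ndrg3TKO libraries overlapped for each of the 8 members, and they did not overlap for 7.04% of all tested genes.

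The targeted gene checked the labels. Ndrg3 measured 79.3, 81.5, 81.2 and 80.9 counts per 1000000 (CPM, scaled by TMM) in Ndrg3ctrl replicates 1 to 4 and 50.4, 48.4, 53.1 and 55.3 CPM in Ndrg3TKO. Each knockout library was below each control (log2 fold change -0.64, SE 0.0526, adjusted p = 1.04e-05, edgeR). Counts of this table cover the whole gene, so transcripts without the floxed part still count. Total counts per library ran from 21126698 to 32668081, and 3 of the 8 libraries, Ndrg3ctrl 2, Ndrg3TKO 2 and Ndrg3TKO 3, held Y-linked counts, so that both sexes were present in both groups. The label of the cells was borne out by the markers. The summed level of the 8 CD8 T cell markers was 5165 to 5920 CPM in Ndrg3ctrl and 5403 to 5747 CPM in Ndrg3TKO. The 6 CD4 and regulatory T cell markers summed to 12.3 to 20.3 and 16.3 to 24.7 CPM. Of these 5 were tested, 0 passed the threshold and 2 had an unadjusted p under 0.05 (edgeR), against 10.9% of all tested genes. Named after their values were seen, they were Foxp3 (log2 fold change 0.53, adjusted p = 0.293, edgeR) and Il2ra (0.62, adjusted p = 0.422). The other 3 had log2 fold changes below 0.

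The 8 genes span 124 kb on chromosome 6, chr6:48647234-48770851 of GRCm38. In order, Gimap8, Gimap9 and Gimap4 lie on the plus strand, Gimap6 on the minus strand, Gimap7, Gimap1 and Gimap5 on the plus strand and Gimap3 on the minus strand. Other annotated genes lie across them. Gimap1os, a noncoding gene on the minus strand, shares 1107 exonic bases with Gimap1, and Gm28053, a plus-strand gene that begins at Gimap7 and runs into Gimap5, shares 81, 198 and 153 exonic bases with Gimap7, Gimap1 and Gimap5. Gm28053 does not begin with Gimap and was named after its overlap and values were seen.

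**Figure D1:**
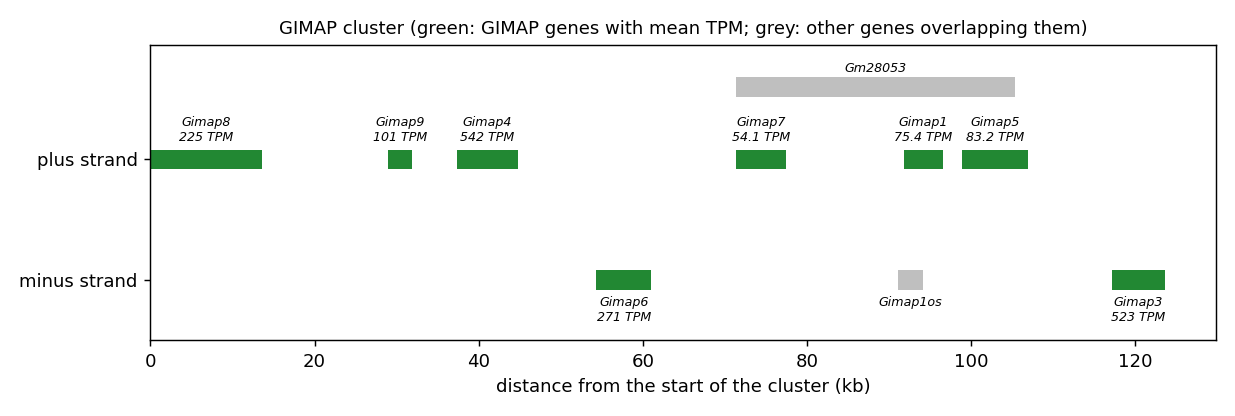
Map of the GIMAP cluster, with the distance from its start in kb on the horizontal axis and the strand on the vertical axis. Green bars are the bodies of the 8 GIMAP genes with their mean TPM over 8 libraries, and grey bars are Gm28053 and Gimap1os. By exonic length the most abundant members, Gimap4 at 542 TPM and Gimap3 at 523 TPM, stand on different strands and far apart. Gimap7, at 54.1 TPM, lies between them.

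All members share a GTP-binding domain with a phosphate-binding loop, the P-loop or Walker A motif, which was found in the translated coding sequence as glycine, any 4 residues, glycine, lysine and then serine or threonine. The bases that encode this loop are shown because they belong to the domain that the family shares, and because they show how far reads of one member could be taken for another. They were read from GENCODE M21 transcripts (GRCm38), 5′ to 3′ on the coding strand, and the capitals mark the last 3 codons of the loop, for glycine, lysine and serine. Each of these stretches lies within a coding exon.
Gimap1 (chr6:48742552-48742575, plus strand): ggcaggactgggaccGGCAAGAGT
Gimap3 (chr6:48765887-48765910, minus strand): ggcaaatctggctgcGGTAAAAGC
Gimap5 (chr6:48752594-48752617, plus strand): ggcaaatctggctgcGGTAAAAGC
Gimap4 (chr6:48690421-48690444, plus strand): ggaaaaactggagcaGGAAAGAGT
Gimap6 (chr6:48702750-48702773, minus strand): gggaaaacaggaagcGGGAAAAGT
Gimap7 (chr6:48723524-48723547, plus strand): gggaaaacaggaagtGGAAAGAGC
Gimap9 (chr6:48677523-48677546, plus strand): gggaagactggaaatGGGAAGAGT
Gimap8, copy 1 (chr6:48650256-48650279, plus strand): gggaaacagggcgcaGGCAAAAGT
Gimap8, copy 2 (chr6:48656119-48656142, plus strand): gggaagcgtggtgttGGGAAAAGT
Gimap8, copy 3 (chr6:48658746-48658769, plus strand): ggaaggagtggggctGGAAAGAGT

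Gimap8 holds 3 copies of the loop and the other members hold 1 each. The stretch is the same, base for base, in Gimap3 and Gimap5, and it differs among all the others. Over the whole coding sequence, Gimap3 and Gimap5 were 87.9% identical in 902 aligned bases, and the next closest pair, Gimap7 and Gimap9, 64.9%. Of all stretches of 50 bases in Gimap3 transcripts, 7.52% also occur in Gimap5, and of those in Gimap5 4.53% occur in Gimap3. At 100 bases these shares are 1.65% and 0.966%. How reads with several matches were treated is not given in the sources used here, so the split of such reads between Gimap3 and Gimap5 is uncertain. For Gimap1, 32.4% of the stretches of 50 bases lie in Gimap1os on the opposite strand, and whether counting used the strand is not given either. No stretch of 50 bases of Gimap4, Gimap8 or Gimap9 occurs in another annotated gene.

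The members were compared in level per length. Levels are given as transcripts per 1000000 (TPM), counts divided by the exonic length of the gene and scaled to a common sum in each library. Gimap4 had the highest mean, 542 ± 41.2 TPM (SD, n = 8), with a range of 486 to 603. Gimap3 followed at 523 ± 58.3 TPM, and its range of 444 to 610 overlapped that of Gimap4, which was the higher of the pair in 6 of 8 libraries. They were above 98.6% and 98.5% of the tested genes.

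Gimap6 (271 ± 20.1 TPM) lay below Gimap3 by a factor of 1.71 to 2.03 in each library, and its range did not meet that of Gimap3. Gimap8 (225 ± 17.7 TPM) was lower than Gimap6 in 8 of 8 libraries, although the ranges overlapped, 203 to 253 against 249 to 301. Gimap8 in turn exceeded Gimap9 by a factor of 1.96 to 2.42. Gimap9 (101 ± 8.34 TPM), Gimap5 (83.2 ± 7.41 TPM) and Gimap1 (75.4 ± 5.35 TPM) had ranges that overlapped from one to the next. Gimap7 was the lowest at 54.1 ± 9.29 TPM, below Gimap1 in 8 of 8 libraries by a factor of 1.02 to 1.64, and still above 76.8% of the tested genes.

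This order rests in part on the length that is used. With the length of the longest transcript, of the longest coding sequence or of the exonic bases found in no other gene, Gimap8 stayed the 4th and Gimap7 the 8th. Gimap3 was the 1st by both the longest transcript and the coding sequence, at 496 and 538 TPM against 436 and 365 TPM for Gimap4, and by the coding sequence Gimap6, at 373 TPM, also came before Gimap4. By that length Gimap8, at 146 TPM, stood close to Gimap5, at 135 TPM, so that the gap below Gimap8 was not seen there. Gimap9, Gimap5 and Gimap1 changed places among themselves, and Gimap9 was the 7th by the coding sequence at 68.8 TPM.

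**Figure D2:**
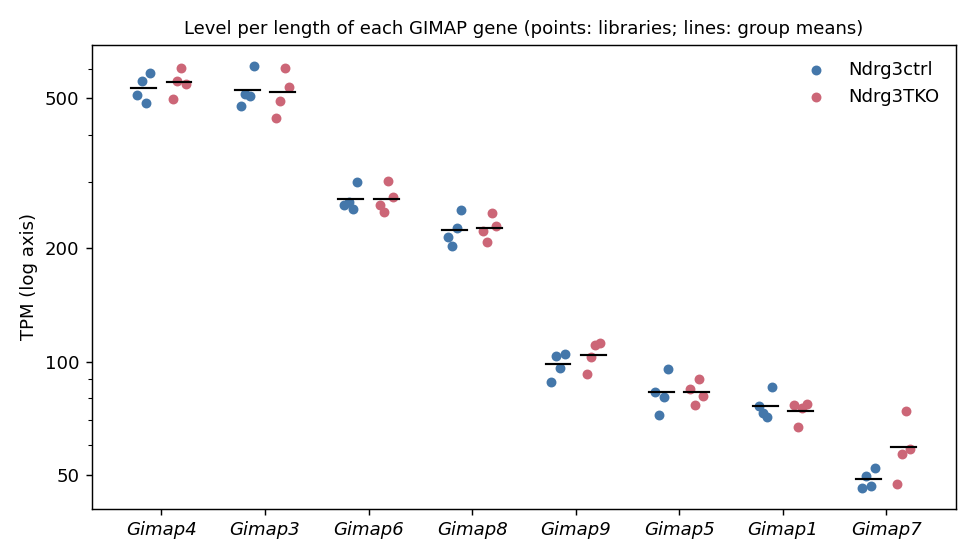
Level of each GIMAP gene in TPM on a log axis, with the genes in order of their mean. Each point is a library, Ndrg3ctrl in blue and Ndrg3TKO in red, and each line a group mean. The 2 groups overlap for every member, and for Gimap7 Ndrg3TKO 2, 3 and 4 stand above the controls of the same gene.

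The family as a whole summed to 1862 ± 154 TPM in Ndrg3ctrl and 1889 ± 163 TPM in Ndrg3TKO (SD, n = 4), a ratio of 1.01. Its makeup is given as each member's share. By exonic length Gimap4 and Gimap3 held the most, with Gimap4 at 28.7 ± 1.23% of the family in Ndrg3ctrl and 29.2 ± 1.06% in Ndrg3TKO, and Gimap3 at 28.3 ± 0.88% and 27.4 ± 1.26%. Gimap7 took 2.63 ± 0.0825% in Ndrg3ctrl and 3.12 ± 0.316% in Ndrg3TKO. In bulk RNA, fewer cells that make a transcript and less transcript per cell cannot be told apart.

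Gimap5 and Gimap1 are the members whose loss is best known to cost peripheral T cells. Gimap5, which encodes a protein of the lysosomal membrane, measured 107, 97.1, 98.5 and 109.5 CPM in Ndrg3ctrl replicates 1 to 4 and 103, 99.7, 107.5 and 96.5 CPM in Ndrg3TKO. The knockout libraries fell within and around the controls, with the lowest value of all in Ndrg3TKO 4. Its group means were 103 ± 6.26 and 102 ± 4.72 CPM (SD, n = 4), and the log2 fold change was -0.02 with a 95% interval of -0.14 to 0.10 (adjusted p = 0.928, edgeR).

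Gimap1, needed by mature T and B cells, measured 73.1, 72.6, 64.5 and 72.3 CPM in Ndrg3ctrl and 69.1, 64.6, 66.7 and 68.2 CPM in Ndrg3TKO. Of the controls 3 stood above every knockout library and Ndrg3ctrl 3 below them, so the groups overlapped through a single control. The log2 fold change of -0.07 had an interval of -0.19 to 0.04 (adjusted p = 0.671, edgeR). Gimap1os, on the opposite strand, had 30.3 to 39.0 CPM in Ndrg3ctrl and 34.2 to 37.0 CPM in Ndrg3TKO (log2 fold change 0.03, adjusted p = 0.919).

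Gimap3, the near copy of Gimap5 whose product is found at mitochondria, had the highest CPM of the family. Its values were 384, 428, 385 and 432 CPM in Ndrg3ctrl and 336, 395, 446 and 395 CPM in Ndrg3TKO. Both the lowest and the highest library belonged to the knockout group, Ndrg3TKO 1 and Ndrg3TKO 3. With means of 407 ± 26.4 and 393 ± 45.0 CPM, the log2 fold change was -0.05 (interval -0.22 to 0.11, adjusted p = 0.86, edgeR).

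Gimap4, a target of pre-T cell receptor signalling that has been tied to the execution of apoptosis in T cells, measured 292, 329.7, 263 and 295 CPM in Ndrg3ctrl and 269, 319.5, 318 and 287 CPM in Ndrg3TKO. The highest and the lowest library were both controls. The means of 295 ± 27.2 and 298 ± 24.7 CPM gave a log2 fold change of 0.02 (interval -0.14 to 0.17, adjusted p = 0.959, edgeR).

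Gimap6, whose product binds the ATG8 protein GABARAPL2 and takes part in autophagy, showed 283.5, 299.7, 262 and 289 CPM in Ndrg3ctrl and 267, 272, 302 and 274 CPM in Ndrg3TKO. Ndrg3TKO 3 was the highest of the 8 and Ndrg3ctrl 3 the lowest, and the log2 fold change was -0.02 (interval -0.15 to 0.10, adjusted p = 0.911, edgeR). Gimap8, the member with 3 GTP-binding domains, varied least. It measured 247, 242.5, 247 and 257 CPM in Ndrg3ctrl and 241, 240.9, 263 and 243 CPM in Ndrg3TKO, where Ndrg3TKO 3 stood above all others. Its log2 fold change was -0.01 (interval -0.11 to 0.10, adjusted p = 0.976, edgeR).

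Gimap9, the neighbour of Gimap8, measured 45.3, 55.0, 46.7 and 47.4 CPM in Ndrg3ctrl and 44.6, 52.8, 52.1 and 52.7 CPM in Ndrg3TKO. In the knockout group 3 libraries lay above 3 of the controls, but the highest library was Ndrg3ctrl 2 and the lowest Ndrg3TKO 1. The means were 48.6 ± 4.36 and 50.6 ± 3.97 CPM, with a log2 fold change of 0.06 (interval -0.10 to 0.22, adjusted p = 0.826, edgeR).

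**Figure D3:**
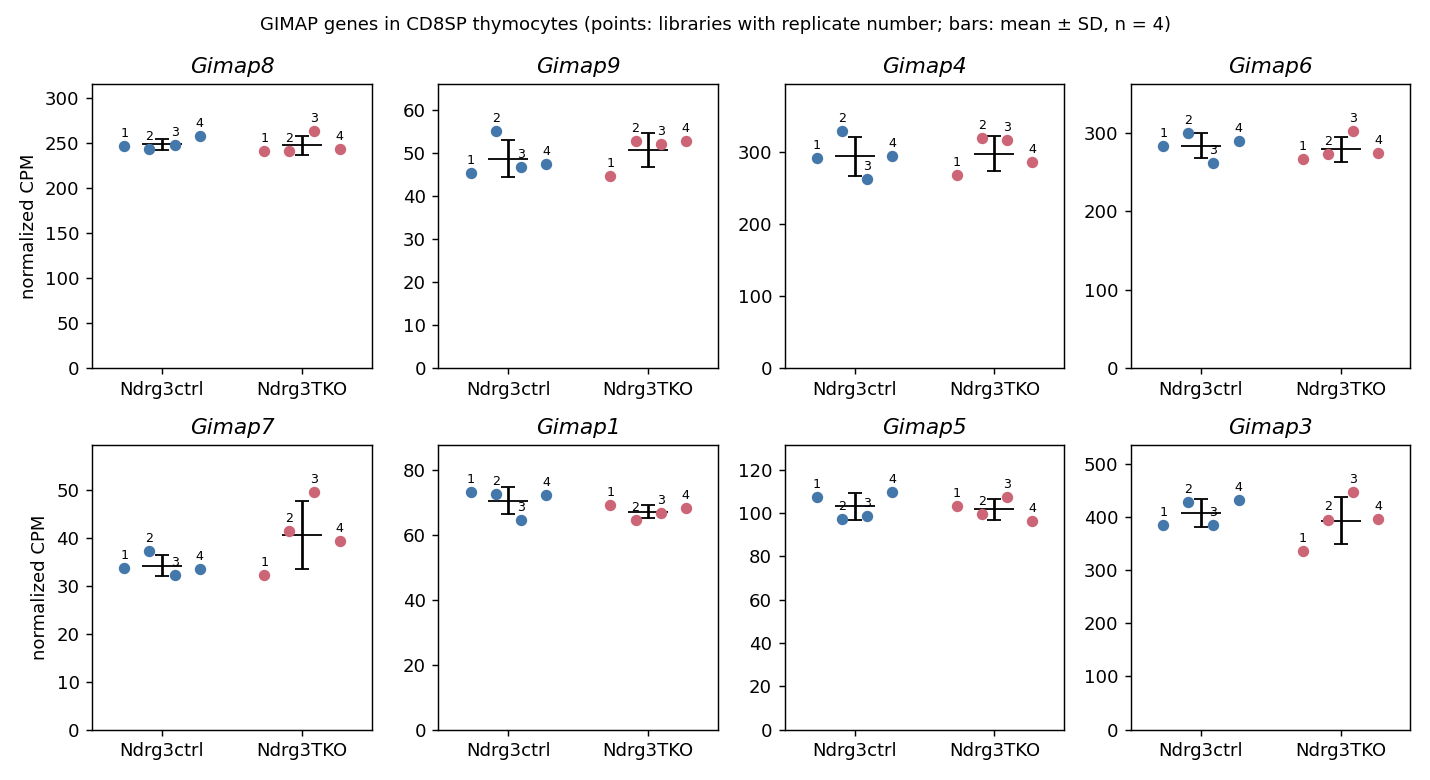
Normalized CPM of the 8 GIMAP genes in every library, in their order along the cluster. Each point is a library with its replicate number, Ndrg3ctrl in blue and Ndrg3TKO in red, and the bars give the mean and SD of 4 libraries. The groups overlap in all 8 panels, and only for Gimap7 do 3 knockout libraries, at 39.2 to 49.4 CPM, stand above every control.

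Gimap7, whose product can pair with another member and activate its GTPase, was the 1 gene of the family with an interval that did not include 0. It measured 33.6, 37.3, 32.2 and 33.5 CPM in Ndrg3ctrl and 32.3, 41.3, 49.4 and 39.2 CPM in Ndrg3TKO. In the knockout group 3 of 4 libraries were above every control, and Ndrg3TKO 1 was among the lowest of all. The means of 34.2 ± 2.21 and 40.5 ± 7.02 CPM gave a log2 fold change of 0.25 (SE 0.105, interval 0.02 to 0.48), that is 1.19-fold, with an unadjusted p of 0.0349 and an adjusted p of 0.41 (edgeR). It ranked at 1243 of the 14633 tested genes by p, and this difference did not pass the correction.

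The size of the Gimap7 difference turned on single libraries. Without Ndrg3TKO 3 the log2 fold change was 0.14 (adjusted p = 0.7, edgeR), and without Ndrg3TKO 1 it was 0.34 (adjusted p = 0.134). The libraries with Y-linked counts were also those with the most Gimap7 in their groups, Ndrg3ctrl 2 at 37.3 CPM and Ndrg3TKO 3 and Ndrg3TKO 2 at 49.4 and 41.3 CPM. With Y-linked expression as a covariate the log2 fold change was 0.18 (adjusted p = 0.279), and within the 5 libraries without Y-linked counts, 3 Ndrg3ctrl and 2 Ndrg3TKO, it was 0.11 (adjusted p = 0.784). The libraries with Y-linked counts, 1 Ndrg3ctrl and 2 Ndrg3TKO, held a single control, and no fit was made within them. Gm28053, which begins beside Gimap7, was low at 2.92 to 3.99 CPM in Ndrg3ctrl and 2.82 to 5.31 CPM in Ndrg3TKO, and it too was highest in Ndrg3TKO 3 (log2 fold change 0.14, adjusted p = 0.85).

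**Figure D4:**
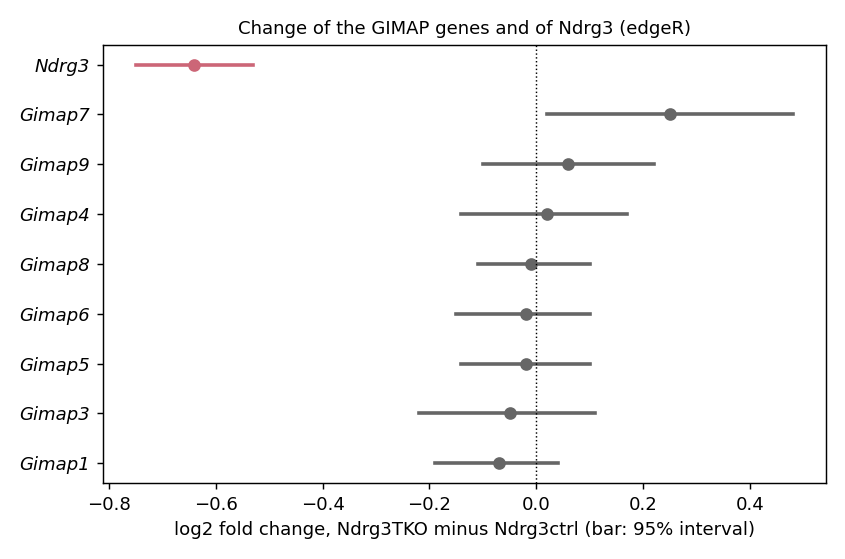
Log2 fold change of Ndrg3TKO over Ndrg3ctrl on the horizontal axis for the 8 GIMAP genes, in grey, and for Ndrg3, in red, with 95% intervals as bars (edgeR, 4 libraries a group). The interval of Gimap7, 0.02 to 0.48, is to the right of 0, those of the other members include 0 and lie between -0.22 and 0.22, and that of Ndrg3 is to the left of -0.5.

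For the other 7 members the intervals bound what could have been missed. In the main fit the log2 fold changes of the 7 lay between -0.07 and 0.06. No interval reached beyond -0.22 or 0.22, that is a fall to 0.86 or a rise to 1.16 of the control level. The median over the 8 members was -0.01, beside -0.0033 over all tested genes, and the median size of the change, regardless of direction, was 0.0382, beside 0.0883. These sizes were not set against genes of like level, and even the lowest member, Gimap7, was above 76.8% of the tested genes in TPM. The members were counted at 760 to 13344 reads per library, and the spread between mice of a group was 2.45 to 17.3% of its mean (SD).

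Within a group the members moved partly together from mouse to mouse. Relative to the mean of its own group on the log2 CPM scale, Ndrg3ctrl 3 was lower for 8 of 8 members, with a mean deviation of -0.09, while Ndrg3TKO 3 was higher for 7 of 8, with a mean of 0.11. Ndrg3TKO 1 was lower for 6 of 8, with a mean of -0.11, and its deviations ranged from -0.31 for Gimap7 to 0.04 for Gimap1. The others stood nearer to their group means, at -0.01 to 0.07. Members share each library and its scaling, so this is given as a description.

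Members differed in how much they varied. The SD between mice of a group, on the log2 scale, was 0.0495 for Gimap8, lower than in 84.5% of genes of like level, and 0.189 for Gimap7, which exceeded 93.5% of its like. Gimap3 and Gimap4, at 0.136 and 0.127, also varied more than most, above 87.4% and 83.5% of genes of like level. For Gimap7 the spread was in the knockout group, with an SD of 0.251 there and 0.0913 in the controls.

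**Figure D5:**
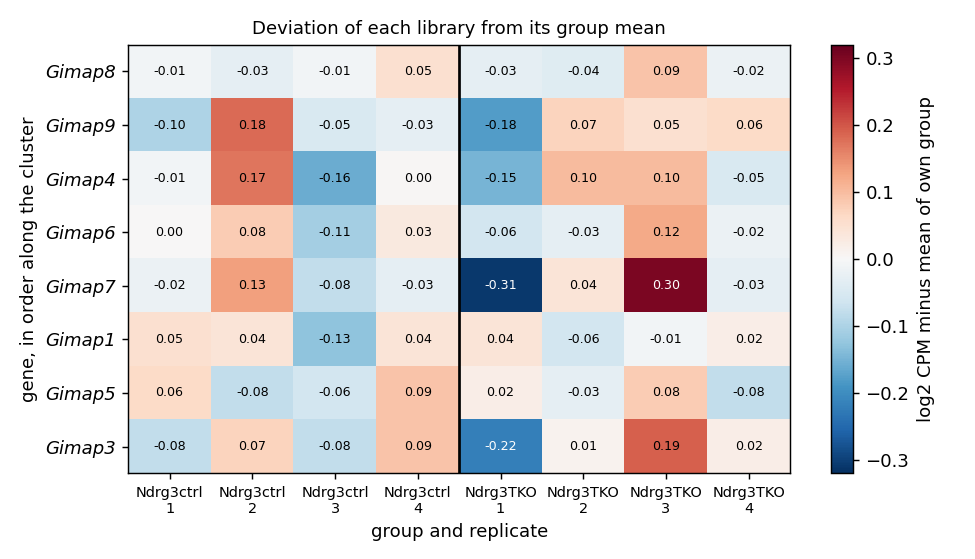
Deviation of each library from the mean of its own group in log2 CPM, with the 8 libraries as columns, the 8 GIMAP genes as rows in their order along the cluster, and red for above and blue for below. The column of Ndrg3ctrl 3 is blue or white for all members, that of Ndrg3TKO 3 red for most, and the row of Gimap7 holds both extremes, -0.31 and 0.30.

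The genes whose pattern over the 8 libraries was most like the mean of the family, among 14625 other tested genes, were Tmem173, Xab2, Pias3, Tmub2 and Slc25a3. Tmem173 encodes STING, an adaptor of the response to cytosolic DNA, and Pias3 an inhibitor of STAT signalling. Likeness was the root mean square difference between centred log2 CPM profiles, which was 0.0226 for Tmem173 and 0.0317 for Slc25a3, with a median of 0.146 over all genes. Profiles this flat are common, since 23.6% of the genes were within 0.1, and among the members themselves the difference ran from 0.0328 for Gimap6 to 0.148 for Gimap7.

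The most and the least abundant member by exonic length share a cluster and a cell type but differ in level. Their promoters are shown for this reason. They are the 250 bases before the transcription start in RefSeq (GRCm38.p6), 5′ to 3′ on the strand of the gene. Capitals mark matches, on either strand, to 2 motifs of factors that are active in T cells, RUNX (TGTGGT) and ETS (AGGAAG).
Gimap4 (chr6:48684328-48684577, plus strand): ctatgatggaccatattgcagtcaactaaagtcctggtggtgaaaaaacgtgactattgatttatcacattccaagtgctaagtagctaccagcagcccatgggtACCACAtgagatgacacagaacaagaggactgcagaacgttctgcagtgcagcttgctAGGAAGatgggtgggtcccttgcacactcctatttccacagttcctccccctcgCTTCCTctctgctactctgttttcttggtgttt
Gimap7 (chr6:48718371-48718620, plus strand): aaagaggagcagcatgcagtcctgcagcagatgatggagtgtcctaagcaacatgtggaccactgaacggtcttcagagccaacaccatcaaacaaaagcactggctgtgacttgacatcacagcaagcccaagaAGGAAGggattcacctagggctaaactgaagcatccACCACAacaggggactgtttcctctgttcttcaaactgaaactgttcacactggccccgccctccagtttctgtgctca

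Both promoters hold 1 RUNX match, and the ETS letters occur 2 times before Gimap4 and 1 time before Gimap7. All 8 members have an entry, Gimap8 with a pair of overlapping windows, which makes 9 windows. The ETS letters were found in 7 of the 9 and in 29.5% of all 32851 windows of the same length, and the RUNX letters in 3 of the 9, those of Gimap4, Gimap7 and Gimap1, against 14% of all. The letters CTTTGA of TCF1 and LEF1 and AGATAA of GATA factors were in 0 of the 9, with 13.8% and 9.99% of all windows. Such matches are letters, and no binding was measured.

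No change was detected among the neighbours of the cluster on chromosome 6 either. Within 500 kb, 52 other genes are annotated and in the table, 18 were tested, and 0 passed the threshold with edgeR or DESeq2. In edgeR 1 was at an unadjusted p under 0.05, against 10.9% of all tested genes. The tested gene next to the cluster on the side of Gimap8, AI854703, had 1.18 to 1.84 CPM in Ndrg3ctrl and 1.07 to 1.24 CPM in Ndrg3TKO (log2 fold change -0.44, adjusted p = 0.473, edgeR). On the side of Gimap3 the next was Tmem176b, which encodes a membrane protein, at 2.71 to 3.99 CPM and 2.64 to 3.52 CPM (log2 fold change -0.11, adjusted p = 0.872).

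Partners of the family were read from lists of genes tied to its functions. Of 12 genes for ATG8 proteins and autophagy, the pathway of Gimap6, all were tested and 0 passed the threshold in edgeR or DESeq2. In edgeR 0 had an unadjusted p under 0.05, against 10.9% of all tested genes. Sqstm1, the autophagy receptor p62, was at -0.02 on the log2 scale (adjusted p = 0.943, edgeR), and the ATG8 gene Map1lc3b one of -0.08 (adjusted p = 0.643). Becn1 and Atg16l1, which act in forming autophagosomes, were at -0.06 and 0.08. The median over the list was -0.0021.

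Of 14 genes for survival and the GSK3 pathway, which has been tied to Gimap5, 0 passed the threshold in edgeR or DESeq2. In edgeR 2 had an unadjusted p under 0.05, against 10.9% of all tested genes. Foxo1, a transcription factor of quiescent T cells, was at 539 ± 33.1 CPM in Ndrg3ctrl and 599 ± 24.8 CPM in Ndrg3TKO (SD, n = 4; log2 fold change 0.15, adjusted p = 0.342, edgeR). Bcl2 and Mcl1, which keep T cells from apoptosis, were at 0.05 and -0.09 on the log2 scale, and Ctnnb1, the β-catenin gene, at 0.0013. The other gene under 0.05 before adjustment was Myc, named after its value was seen, at -0.23 (adjusted p = 0.428). The list does not hold the whole BCL2 family. Bbc3, a gene of that family outside the list, passed the threshold, as 1.15% of all tested genes did, and was also named after its value was seen. It averaged 10.78 CPM in Ndrg3ctrl and 15.84 CPM in Ndrg3TKO (log2 fold change 0.5592, adjusted p = 0.03476, edgeR). Other genes of that family outside the list are not reported here, so Bbc3 does not stand for the family.

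GIMAP genes rise as thymocytes mature, so genes of maturation stage were read beside them. Of 8 genes of the mature single-positive stage, 0 passed the threshold in edgeR or DESeq2 and 4 had an unadjusted p under 0.05, all with lower values in Ndrg3TKO, as had 5.51% of all tested genes. Klf2, S1pr1 and Ccr7, which were among them, were named after their values were seen. Klf2, the factor that drives the exit from the thymus, measured 332, 367, 295 and 335 CPM in Ndrg3ctrl and 281, 308, 257 and 266 CPM in Ndrg3TKO, with overlap through Ndrg3ctrl 3 and Ndrg3TKO 2 (log2 fold change -0.26, adjusted p = 0.13, edgeR).

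S1pr1, the receptor that guides cells out, and the chemokine receptor Ccr7 were at -0.19 and -0.26 on the log2 scale, with adjusted p of 0.203 and 0.135 (edgeR). The class I genes of the list were at 0.11 for B2m, -0.00094 for H2-K1 and -0.05 for H2-D1. The median of the list was -0.15, beside -0.01 for the GIMAP family. With Y-linked expression as a covariate, 4 of the 8 passed the threshold, all lower and with Klf2, S1pr1 and Ccr7 among them, and 0 GIMAP genes did, where 2.39% of all tested genes passed in that fit and 0.929% passed with lower values.

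Of 8 genes of the immature stage, 7 were tested and 0 passed the threshold in edgeR or DESeq2. In edgeR 1, Ccr9, had an unadjusted p under 0.05, against 10.9% of all tested genes. Ccr9, a chemokine receptor of thymocytes, was at 461 to 508 CPM in Ndrg3ctrl and 529 to 599 CPM in Ndrg3TKO, without overlap (log2 fold change 0.18, adjusted p = 0.216, edgeR). Tox, Sox4 and Cd69 were at 0.03, -0.02 and 0.14 on the log2 scale.

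Some GIMAP genes are also expressed outside T cells, so markers of other cell types were read. Of the B cell markers, Ms4a1 was at 0 in all libraries and Pax5 averaged under 0.05 CPM in both groups, so that the sum of 252 to 301 CPM in Ndrg3ctrl and 261.5 to 312 CPM in Ndrg3TKO was nearly all Ighm. Cd79b, which encodes a chain of the B cell receptor, was at 11.8 ± 1.1 CPM in Ndrg3ctrl and 8.73 ± 0.528 CPM in Ndrg3TKO (SD, n = 4), without overlap (log2 fold change -0.43, adjusted p = 0.0529, edgeR). The NK cell markers summed to 260.5 to 311 and 292 to 344 CPM, mostly Nkg7, with Ncr1 at 0. Of the 4 tested 1, Klrb1c, passed the threshold, where 1.15% of all tested genes did. Klrb1c was at 0.305 ± 0.232 CPM in Ndrg3ctrl and 1.77 ± 0.299 CPM in Ndrg3TKO (log2 fold change 2.62, adjusted p = 0.00149, edgeR). Its controls ran from 0.11 to 0.639 CPM, where 3 counts equal 0.0998 to 0.142 CPM, so this fold change rests on few reads in the controls. The other tested NK cell markers were Nkg7 at 0.23 (adjusted p = 0.203, edgeR), Prf1 at -0.08 and Gzma at -0.02 on the log2 scale. Endothelial markers summed to 154 to 178 and 147 to 161 CPM, mostly Pecam1, with Tek at 0, and Cdh5 was at 1.52 to 2.36 CPM in Ndrg3ctrl and 1.04 to 1.5 CPM in Ndrg3TKO, without overlap (log2 fold change -0.64, adjusted p = 0.244). Myeloid markers reached at most 5.67 CPM and erythroid markers 0.232 CPM, with 4 of 6 erythroid genes at 0. Double-positive thymocyte markers summed to 63.2 to 70.3 and 64.3 to 73.4 CPM, with Cd1d1 the most abundant. Among them Dntt, the terminal transferase of immature thymocytes, was at 14.2 to 18.7 CPM in Ndrg3ctrl and 19.2 to 25.4 CPM in Ndrg3TKO, without overlap (log2 fold change 0.45, adjusted p = 0.0783, edgeR). Of the 5 tested in this list, 0 passed the threshold and 1, Dntt, had an unadjusted p under 0.05 (edgeR), against 10.9% of all tested genes. Log2 fold changes were above 0 for 3 of them and below 0 for 2, with a median of 0.00042. Cd79b, Cdh5 and Dntt were named after their values were seen, and groups did not overlap for 7.04% of all tested genes. The part of these markers in the GIMAP values was not tested.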

How the data were processed

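RNA from sorted CD8SP thymocytes was made into stranded total RNA libraries after removal of ribosomal RNA, 4 for Ndrg3ctrl and 4 for Ndrg3TKO. The authors used cutadapt for trimming and STAR for alignment to GRCm38.p4, and counted them per gene with featureCounts, and the raw counts they deposited are not normalized. Groups and replicate numbers were taken from the sample labels, and all 8 columns were used. The labels call the samples biological replicates, and each was taken here as 1 mouse.

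Counts were filtered with filterByExpr, scaled by TMM and tested with edgeR 4.0.16 (glmQLFit, robust, and glmQLFTest; R 4.3.3), and p-values were adjusted by the Benjamini-Hochberg method among tested genes, with 0.05 as the threshold. The size of a log2 fold change over the root of its F statistic gave its standard error. CPM are counts relative to the TMM-scaled total, and log2 CPM used a prior count of 2. The procedure was tested on simulated data. Symbols, positions and lengths came from GENCODE M21, which 98.7% of the rows matched without the version of the identifier, and TPM were computed over those rows. Promoters were from RefSeq, and coding sequences were aligned with Biopython 1.88. Depth was 21126698 to 32668081 counts per library, where 3 counts equal 0.0918 to 0.142 CPM, and this covers counting error only, since PCR reads are not independent molecules.

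The members and gene lists were chosen with earlier results of these data known. Genes named are all members, other genes beginning with Gimap, of each list those past the threshold and up to 4 others with the most counts, the tested genes next to the cluster, Ndrg3 and the 5 genes with the most similar profile. Some list members are not reported here by name. Alternatives were DESeq2 1.42.0, RLE, upper quartile or no scaling factors, no filter, at least 10 counts in every library, a replicate block, a Y-linked covariate, leaving out each library, other gene lengths for TPM and, chosen after seeing the data, merged overlapping genes and only libraries without Y-linked counts.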

Additional observations from a re-analysis of the deposited data

Results flagged for a closer look

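In 3 of the 42 groups of 4 libraries checked, a single library stood so far from the other 3 that the gap passed Dixon's 95% value, and chance flags about 1 in 20 groups. Gimap1 in Ndrg3ctrl 3 was at 64.5 CPM, below the 72.3 to 73.1 CPM of the other controls. Gimap8 in Ndrg3TKO 3 was at 262.9 CPM, above the 240.9 to 243.3 CPM of the other knockout libraries. Gimap9 in Ndrg3TKO 1 was at 44.6 CPM, below the 52.1 to 52.8 CPM of the others. Over the family, 8 of 8 members lay below their group mean in Ndrg3ctrl 3, 7 of 8 above it in Ndrg3TKO 3 and 6 of 8 below it in Ndrg3TKO 1.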

How the results depend on the processing

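No GIMAP gene, autophagy gene or chromosome 6 neighbour passed the threshold in any of the 18 other settings, and Ndrg3 passed in all of them. The number of genes past the threshold, 168, was 306 with DESeq2, 274 with no filter, 349 with the Y-linked covariate, 92 in the libraries without Y-linked counts and 90 to 158 when each library was left out. With the replicate block it was 800, with 0 of the 8 GIMAP genes. The labels do not say that a replicate number marks a shared litter or day. The libraries were not treated as pairs, since not every pair was above 0.1. Same-numbered libraries correlated at -0.055 to 0.415 in their deviations, above 0.1 in 3 of 4 pairs. In each group 3 of 4 libraries, replicates 1, 2 and 4, correlated best with their own number. In replicates 1 and 4 neither library held Y-linked counts, in replicate 2 both did, and in replicate 3 only the Ndrg3TKO library did. Whether this pattern follows sex or the number was not tested, and it comes from the data and not the design. With the replicate block, where 800 of 14633 tested genes passed, 2 survival genes (Myc lower, Foxo1 higher) were called. So were 3 mature-stage genes (Klf2, Ccr7 and S1pr1, all lower) and 1 immature-stage gene (Ccr9, higher). With the Y-linked covariate 1 survival gene (Myc) and 4 mature-stage genes passed, beside 349 of 14633 tested genes. Without a filter 2 mature-stage genes (Klf2 and Ccr7) passed, beside 274 of 24678. The cause was not tested. Gimap7 kept its sign in all settings (log2 fold change 0.11 to 0.34), as did Gimap1 (-0.11 to -0.03) and Gimap9 (0.03 to 0.12). These settings refit the same libraries, so a kept sign is not independent support for a direction. In the main fit the intervals of Gimap1, -0.19 to 0.04, and Gimap9, -0.10 to 0.22, include 0.

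Of 144 member values, 14 changed sign, all near 0 and none past the threshold. Gimap4 was at -0.03 with the Y-linked covariate and in the libraries without Y-linked counts, Gimap8 at 0.0013 with upper quartile scaling, and the rest came from leaving out a library: Gimap3 ranged from -0.12 to 0.02, Gimap4 from -0.03 to 0.07, Gimap5 from -0.05 to 0.01, Gimap6 from -0.07 to 0.00095 and Gimap8 from -0.04 to 0.01, so that no direction can be given for these 5.

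With 4 mice a group, changes of the members inside the intervals given could not be seen. Reads shared by Gimap3 and Gimap5, or by Gimap1 and Gimap1os, limit their separate levels, and RNA does not measure protein.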
